A study of Mus musculus with 14 samples.

Results

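The 10 genes described here encode surface molecules through which tumour macrophages restrain or stimulate T cells and other leukocytes, or are themselves restrained. They are Cd274, Pdcd1lg2, Havcr2, Vsir, Lilrb4a, Pirb, Sirpa, Cd80, Cd86 and Cd40, a list of symbols found in the deposited table through their mouse Ensembl identifiers, 10 of 24556 genes. RNA had been sequenced from F4/80+ cells, a macrophage fraction enriched with antibody-coated magnetic beads from tumours in Balb/c mice. The tumours grew from 4T1 cells, a mouse mammary carcinoma line, injected into the fat pad after 5 days of culture with the vehicle DMSO or with the inhibitor GSK269962A at 5 µM. The groups were DMSO day 8 (n = 3), GSK day 8 (n = 3), DMSO day 14 (n = 4) and GSK day 14 (n = 4), named for the culture of the tumour cells and the days since injection, 14 libraries in all. Every group carried tumours of the same line, and by the labels the tumour cells were exposed in culture and the macrophages were not. The age of the mice and whether each library came from a separate mouse are not given in the sources used here, so the p-values measure the spread between these libraries, which may be technical.

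Cd274 encodes PD-L1 and Pdcd1lg2 encodes PD-L2, the ligands of the inhibitory T cell receptor PD-1. Cd80 and Cd86 encode the B7 proteins that stimulate T cells through CD28 and restrain them through CTLA-4, and Cd40 encodes a receptor through which T cells carrying CD40 ligand activate antigen-presenting cells. Havcr2 (TIM-3), Vsir (VISTA), Lilrb4a, Pirb and Sirpa encode inhibitory molecules of myeloid cells, and several of them signal through tyrosine-based motifs that recruit phosphatases such as SHP-1, encoded by Ptpn6.

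All 10 genes passed the filter on low values, an unlogged value of at least 10 (a log2 value of 3.32) in 3 or more libraries, which 11886 of 24556 genes passed. The table held log2-scale normalised values and no counts, so the depth is unknown, and the libraries correlated with each other at Pearson r of 0.933 to 0.993 across genes. All 10 macrophage markers fixed for the check were kept, with a mean log2 value of 11.69 to 12.38 over the libraries. Of T and NK cell markers in the table, 2 of 9 were kept, Cd3e at 4.34 to 5.20 and Cd4 at 4.01 to 4.86. The lowest of those not kept were Trbc2, between -2.06 and -2.05, and Nkg7, between -1.86 and -1.81. Among the 4T1 epithelium markers, Epcam lay at 3.39 to 4.60, near the minimum, and Cdh1 at 9.90 to 10.66. All 9 of these markers in the table were kept, so tumour cell RNA may have been present. Their mean was 6.16 ± 0.41 (SD, n = 3) in DMSO day 8, 6.70 ± 0.74 (n = 3) in GSK day 8, 5.37 ± 0.21 (n = 4) in DMSO day 14 and 5.06 ± 0.07 (n = 4) in GSK day 14. The ribosomal RNA reads went to the gene model AY036118 in 9 libraries and to the overlapping model Gm42418 in 5, and all 4 GSK day 14 libraries were of the AY036118 kind, as were 2 of the 4 DMSO day 14 libraries.

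In tumours taken on day 14, Lilrb4a, Cd86 and Havcr2 were higher in macrophages from the GSK group, by 2.64-fold, 1.74-fold and 1.49-fold, and none of the 10 genes was lower. The genes were compared with limma, a linear model fitted to all kept genes, with Benjamini-Hochberg adjustment of p-values and a threshold of 0.05. Thus 3 of the 10 genes rose on day 14, beside 5.1 percent of all kept genes that rose and 5.73 percent that fell. The median log2 change of the 10 genes was 0.08, and that of all kept genes was 0.02. On day 8 none of the 10 genes passed with limma, 1 had an unadjusted p under 0.05, and 0.194 percent of all kept genes passed in either direction. In bulk RNA, a change in the number of cells of a type and a change in RNA per cell cannot be told apart.

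**Figure D1:**
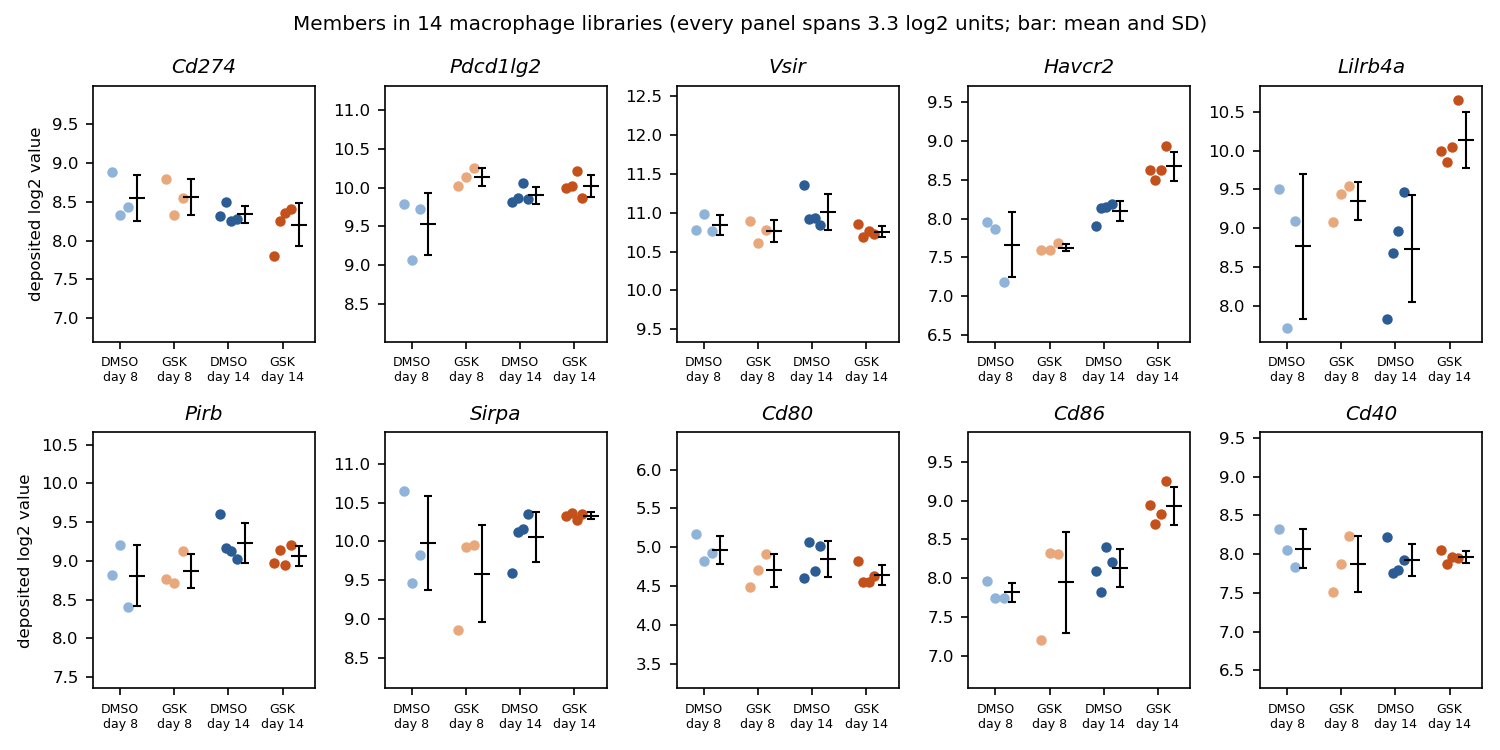
Deposited log2 value (vertical axis) of each of the 10 genes in each library, as points in 4 groups (horizontal axis), with bars for the mean and SD (n = 3 on day 8, n = 4 on day 14). Every panel spans the same number of log2 units. The GSK day 14 points lie above all DMSO day 14 points for Havcr2, Lilrb4a and Cd86, and the groups overlap on day 14 for the other 7 genes.

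Havcr2, a receptor of T cells and myeloid cells that binds galectin-9 and other ligands, lies on chromosome 11 at 46454935 to 46481255 on the plus strand (GRCm38). Its log2 values were 7.95, 7.86 and 7.18 in DMSO day 8, and 7.60, 7.60 and 7.68 in GSK day 8. They were 7.91, 8.13, 8.15 and 8.19 in DMSO day 14, and 8.62, 8.50, 8.63 and 8.94 in GSK day 14. Every GSK day 14 library was thus above every other library. The day 14 log2 change was 0.58 (SE 0.16, limma adjusted p = 0.0343), and the day 8 change was -0.04 (95% interval -0.43 to 0.36). The difference between these changes, 0.61 (SE 0.25), did not pass after adjustment (limma adjusted p = 0.548). The day 14 call ended when any of 6 of the 8 day 14 libraries was left out. These were DMSO libraries 1, 2 and 4 and GSK libraries 1, 3 and 4, without which the change was 0.49 to 0.61 and the limma adjusted p 0.0606 to 0.137.

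Over time in the GSK group Havcr2 rose by 1.04 on the log2 scale (SE 0.17, limma adjusted p = 0.00472), or 2.06-fold. Together with Cd86 it made 2 of the 10 genes that rose, beside 3.05 percent of all kept genes that rose and 3.95 percent that fell in that comparison. In the DMSO group the change over time was 0.43 (SE 0.17, limma adjusted p = 0.254), and there none of the 10 genes passed, 3 had an unadjusted p under 0.05, and 0.824 percent of all kept genes passed. Of the 4T1 epithelium markers, 7 of 9 fell over time in the GSK group, with a median log2 change of -1.70, and with their mean as a covariate the rise of Havcr2 was 0.67 (limma adjusted p = 1.0). The part of any tumour cell RNA in the rise was not tested beyond that fit.

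The RefSeq table of start sites (GRCm38.p6) holds the stretch before the start for 6 of the 10 genes, Havcr2, Cd274, Pdcd1lg2, Vsir, Pirb and Cd80. The 250 bases before the Havcr2 start (chr11:46454681-46454930, plus strand) are shown because it is the one gene of the day 14 rises with an entry. Capitals mark matches to 2 sets of letters. TGANTCA, a loosened form of the AP-1 site that this stretch meets only in its loosened form, has its first base 200 bases before the start, and GAGGAAG, the core bound by the myeloid factor PU.1, has it 8 bases before the start.
Havcr2: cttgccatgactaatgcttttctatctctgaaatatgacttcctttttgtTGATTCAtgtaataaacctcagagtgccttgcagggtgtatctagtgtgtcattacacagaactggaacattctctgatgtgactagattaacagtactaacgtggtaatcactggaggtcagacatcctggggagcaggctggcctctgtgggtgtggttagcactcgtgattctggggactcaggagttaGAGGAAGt
Both strands were searched, and these matches do not overlap. TGANTCA occurs in 6.75% and GAGGAAG in 10.61% of 32851 such stretches, so both are common. None of the 6 genes holds the letters TTCNNNGAA, a form of the interferon gamma activated site, which occur in 7.02% of all stretches.

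Cd86 lies on chromosome 16 at 36603869 to 36666081 on the minus strand. Its log2 values were 7.96, 7.75 and 7.74 in DMSO day 8, and 7.20, 8.33 and 8.31 in GSK day 8. They were 8.09, 7.82, 8.40 and 8.21 in DMSO day 14, and 8.94, 8.70, 8.83 and 9.26 in GSK day 14. As for Havcr2, all 4 GSK day 14 libraries were higher than the other 10, while the first GSK day 8 library was the lowest of all. The day 14 log2 change was 0.80 (SE 0.22, limma adjusted p = 0.0304), and the day 8 change was 0.13 (95% interval -0.40 to 0.66). The difference between them was 0.67 (SE 0.33, limma adjusted p = 0.605). Leaving out DMSO day 14 library 1, 2 or 4, or GSK day 14 library 1, 3 or 4, ended the day 14 call, with changes of 0.69 to 0.84 and limma adjusted p of 0.0548 to 0.123.

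Over time Cd86 rose by 0.99 in the GSK group (SE 0.23, limma adjusted p = 0.0252), or 1.98-fold, and its change in the DMSO group was 0.31 (SE 0.23, limma adjusted p = 0.546). Without GSK day 8 library 1 the rise was 0.61 (limma adjusted p = 0.136), and it also missed the threshold without GSK day 14 library 1 (0.98, limma adjusted p = 0.0596) or 4 (0.87, limma adjusted p = 0.0922). With the mean of the 4T1 epithelium markers as a covariate it was 0.14 (limma adjusted p = 1.0).

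Cd80, the other B7 ligand of CD28 and CTLA-4, lies on the same chromosome at 38455561 to 38496335 on the plus strand and was the lowest of the 10 genes. Its log2 values ran from 4.49 to 5.17, and the day 14 change was -0.21 (95% interval -0.52 to 0.11, limma adjusted p = 0.399). Within a library, Cd86 exceeded Cd80 by 2.75 to 3.70 log2 units in DMSO day 14 and by 4.12 to 4.64 in GSK day 14. These ranges of the difference do not overlap, while on day 8 they were 2.79 to 2.93 in DMSO and 2.71 to 3.61 in GSK. No test was made of this difference between a pair of genes.

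Cd40, a receptor of the TNF receptor family, lies on chromosome 2 at 165055627 to 165072948 and overlapped between the groups at both times. Its mean log2 value was 8.07 ± 0.25 (SD, n = 3) in DMSO day 8, 7.87 ± 0.36 (n = 3) in GSK day 8, 7.93 ± 0.21 (n = 4) in DMSO day 14 and 7.96 ± 0.08 (n = 4) in GSK day 14. The day 14 change was 0.03 (95% interval -0.31 to 0.37), which leaves room for changes of up to 0.37 in size, and its sign turned under several settings.

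**Figure D2:**
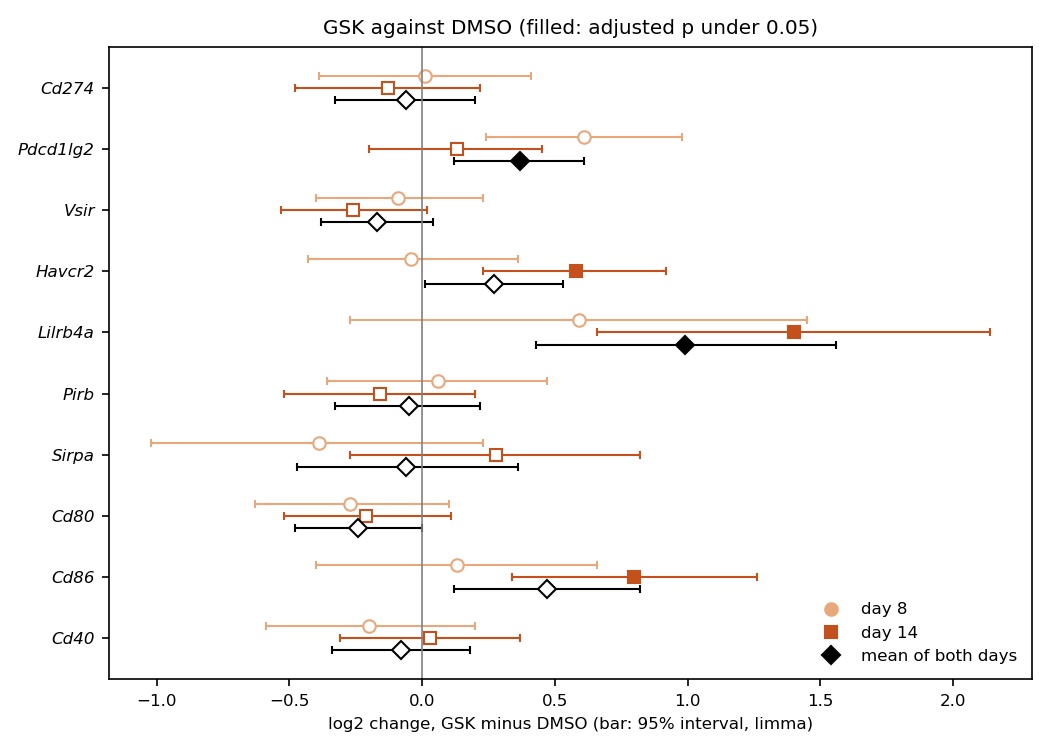
Log2 change of each gene, GSK minus DMSO (horizontal axis), on day 8 (circles), day 14 (squares) and as the mean of both days (diamonds), with 95% intervals from limma and filled symbols for an adjusted p under 0.05. Lilrb4a, Cd86 and Havcr2 are filled on day 14, and Lilrb4a and Pdcd1lg2 for the mean of both days.

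Lilrb4a, an inhibitory immunoglobulin-like receptor of myeloid cells, had the largest day 14 change of the 10 genes. It shares sequence with its neighbours, and how reads were divided among them is not known from the deposited values. It lies on chromosome 10 at 51490956 to 51496611. Its log2 values were 9.50, 7.71 and 9.09 in DMSO day 8, and 9.08, 9.44 and 9.55 in GSK day 8. They were 7.83, 8.68, 8.97 and 9.47 in DMSO day 14, and 10, 9.85, 10.05 and 10.66 in GSK day 14. The GSK day 14 libraries were the 4 highest, and the DMSO libraries spread widely at both times. The day 14 change was 1.40 (SE 0.35, limma adjusted p = 0.0226). Without DMSO day 14 library 1 it was 1.10 (limma adjusted p = 0.0574), without library 2 it was 1.38 (limma adjusted p = 0.0632), and without GSK day 14 library 4 it was 1.22 (limma adjusted p = 0.0982).

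Of the 31-base words in its transcripts, Lilrb4a shares 56.11% with other genes and 39.08% with the neighbouring receptor gene Lilr4b, also called Lilrb4b. The gene model Gm49339 spans both. Over 907 aligned bases of their coding sequences, Lilrb4a and Lilr4b are 96.0% identical. The first 120 coding bases are shown as an example of this likeness, and capitals mark the 2 bases that differ.
Lilrb4a: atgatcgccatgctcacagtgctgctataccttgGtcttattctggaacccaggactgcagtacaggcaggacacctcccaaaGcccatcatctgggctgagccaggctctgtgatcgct
Lilr4b: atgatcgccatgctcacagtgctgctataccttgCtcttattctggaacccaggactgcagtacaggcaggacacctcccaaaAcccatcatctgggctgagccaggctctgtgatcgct
Lilrb4a made up 7.0% of the summed unlogged values of the 3 models in DMSO day 8 library 2 and 7.9% in DMSO day 14 library 1, the libraries in which it was lowest and Gm49339 stood at 9.76. In the other DMSO libraries it made up 14.0% to 31.4%, in the GSK day 8 libraries 21.6% to 29.7% and in the GSK day 14 libraries 22.9% to 31.8%.

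With the unlogged values of Lilrb4a, Lilr4b and Gm49339 summed, an alternative chosen after the data were seen, the day 14 change was 0.53 (SE 0.18) and missed the threshold (limma adjusted p = 0.0626). The summed log2 values were 11.51, 11.39, 11.80 and 11.44 in DMSO day 14, and 11.98, 11.97, 11.99 and 12.32 in GSK day 14. The sums still did not overlap between the groups on day 14, whereas on day 8 the change of the sum was -0.01, beside 0.59 (SE 0.40, limma adjusted p = 0.496) for Lilrb4a alone, which was 0.06 without DMSO day 8 library 2. Over time in the GSK group the sum rose by 0.73 (SE 0.19, limma adjusted p = 0.0331), and Lilrb4a alone changed by 0.78 (SE 0.38, limma adjusted p = 0.211). Lilr4b itself changed by 0.31 on day 14 (SE 0.17, limma adjusted p = 0.257).

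**Figure D3:**
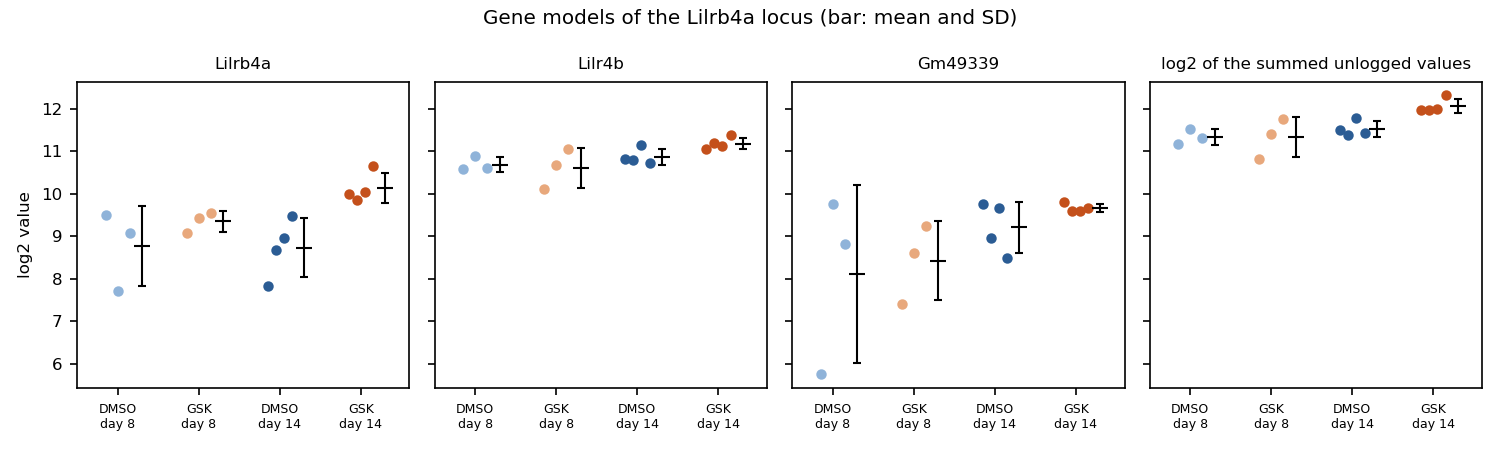
Log2 value (vertical axis) of Lilrb4a, Lilr4b and the overlapping model Gm49339, and the log2 of their summed unlogged values, in each library of 4 groups (horizontal axis), with bars for the mean and SD (n = 3 on day 8, n = 4 on day 14). Gm49339 ranges from 5.75 to 9.81.

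Pirb, a receptor for MHC class I molecules on chromosome 7 at 3711409 to 3720391, shares 44.11% of its words with other genes, most with Gm14548 and Lilra6. Its log2 values lay between 8.41 and 9.60. The day 14 change was -0.16 (95% interval -0.52 to 0.20, limma adjusted p = 0.588), and with the copies Pira2, Lilra6 and Gm14548 summed it was -0.21 (limma adjusted p = 0.508). Pira2, an activating relative, stood at -0.82 on day 14 (SE 0.44, limma adjusted p = 0.249).

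Sirpa, the receptor for the "do not eat me" ligand CD47, lies on chromosome 2 at 129592835 to 129632228. Its mean was 10.06 ± 0.32 (SD, n = 4) in DMSO day 14 and 10.33 ± 0.04 (n = 4) in GSK day 14, and the change was 0.28 (95% interval -0.27 to 0.82, limma adjusted p = 0.531). In the GSK group its values on day 14, 10.27 to 10.37, lay above those on day 8, 8.86 to 9.96. That difference of 0.75 (SE 0.28) did not pass (limma adjusted p = 0.106). It was 0.39 (limma adjusted p = 0.558) without GSK day 8 library 1, 0.44 (limma adjusted p = 0.0181) with library quality weights, and -0.05 once the fit held the 4T1 epithelium mean. Cd47 was between 9.28 and 10.18 in all libraries. It changed by 0.39 on day 14 (SE 0.14, limma adjusted p = 0.0876), and by 0.35 for the mean of both days (SE 0.11, limma adjusted p = 0.0412). The latter passed, but not in 15 of 26 alternative settings. Over all 26 the change was 0.30 to 0.41.

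Vsir, an inhibitory relative of the B7 family, lies on chromosome 10 at 60346851 to 60372684, within the gene Cdh23 on the other strand. It varied least, with an SD within groups of 0.16, beside 0.61 for Lilrb4a and a median of 0.24 for all kept genes. The values were 11.36, 10.92, 10.93 and 10.84 in DMSO day 14, and 10.85, 10.69, 10.76 and 10.72 in GSK day 14, which overlap by a narrow margin. The day 14 change was -0.26 (95% interval -0.53 to 0.02, limma adjusted p = 0.218). Within a library, the difference of Havcr2 minus Vsir was -3.45 to -2.65 log2 units in DMSO day 14 and -2.23 to -1.78 in GSK day 14. Havcr2 was thus closer to Vsir in every GSK day 14 library than in any DMSO day 14 library.

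Cd274 and Pdcd1lg2, the PD-1 ligands, are neighbours on chromosome 19, at 29367455 to 29388095 and 29410919 to 29471161, both on the plus strand. Cd274 did not pass in any comparison. Its log2 values were 8.89, 8.33 and 8.44 in DMSO day 8, and 8.80, 8.33 and 8.55 in GSK day 8. They were 8.32, 8.50, 8.25 and 8.28 in DMSO day 14, and 7.80, 8.25, 8.36 and 8.41 in GSK day 14. The groups overlapped at both times. The changes were 0.01 on day 8 (95% interval -0.39 to 0.41) and -0.13 on day 14 (95% interval -0.48 to 0.22), so these data leave room for a change of either sign. Antisense to Cd274 lies the model AC119228.1, which shares 12.06% of its words, and whether the counting used strand is not given in the sources used here.

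Pdcd1lg2 showed its larger difference on day 8. Its values were 9.79, 9.07 and 9.72 in DMSO day 8, and 10.02, 10.13 and 10.25 in GSK day 8, which did not overlap, as for 16.2 percent of all kept genes on that day. On day 14 they were 9.81, 9.87, 10.06 and 9.85 in DMSO and 9.99, 10.02, 10.21 and 9.86 in GSK, which overlapped. On day 14, 3 of the 10 genes did not overlap, beside 22.0 percent of all kept genes. The day 8 change of Pdcd1lg2 was 0.61 (SE 0.18, limma adjusted p = 0.118), or 0.38 (limma adjusted p = 0.171) without DMSO day 8 library 2, and the day 14 change was 0.13 (SE 0.15, limma adjusted p = 0.643). The difference between the days, -0.48, did not pass (limma adjusted p = 0.6). For none of the 10 genes did the difference between days pass with limma, 1 had an unadjusted p under 0.05, and 0.00841 percent of all kept genes passed.

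Averaged over both days, Lilrb4a (0.99, SE 0.27, limma adjusted p = 0.023) and Pdcd1lg2 (0.37, SE 0.12, limma adjusted p = 0.0447) were higher in the GSK group. That is 2 of the 10 genes, beside 6.73 percent of all kept genes that rose and 7.77 percent that fell. Pdcd1lg2 missed the threshold when any of 10 of the 14 libraries was left out (DMSO day 8 library 2, GSK day 8 libraries 2 and 3, DMSO day 14 libraries 1, 2 and 4, and each GSK day 14 library), with changes of 0.25 to 0.39 and limma adjusted p up to 0.117. The smallest, 0.25 (limma adjusted p = 0.0814), was without DMSO day 8 library 2. Lilrb4a missed it without GSK day 8 library 2 (0.97, limma adjusted p = 0.0545) or 3 (0.95, limma adjusted p = 0.0623) or GSK day 14 library 4 (0.91, limma adjusted p = 0.0546), and with the 3 gene models summed (0.26, limma adjusted p = 0.202).

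The 250 bases before the starts of the PD-1 ligand genes are shown because these neighbours encode ligands of the same receptor. They are chr19:29367188-29367437 for Cd274 and chr19:29410669-29410918 for Pdcd1lg2, from RefSeq (GRCm38.p6), and neither holds a match to the 3 sets of letters above, so no base is in capitals.
Cd274: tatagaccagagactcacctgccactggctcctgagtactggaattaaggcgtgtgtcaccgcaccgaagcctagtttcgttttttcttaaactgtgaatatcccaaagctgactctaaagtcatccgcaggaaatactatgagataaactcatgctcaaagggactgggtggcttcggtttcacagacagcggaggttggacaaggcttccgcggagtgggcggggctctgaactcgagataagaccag
Pdcd1lg2: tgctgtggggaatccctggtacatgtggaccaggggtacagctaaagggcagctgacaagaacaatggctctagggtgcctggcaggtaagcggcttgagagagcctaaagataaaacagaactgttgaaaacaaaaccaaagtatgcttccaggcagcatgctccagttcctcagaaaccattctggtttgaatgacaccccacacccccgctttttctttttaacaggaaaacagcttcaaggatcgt
Within a library Pdcd1lg2 exceeded Cd274 by 0.74 to 1.29 log2 units in DMSO day 8, by 1.22 to 1.80 in GSK day 8, by 1.37 to 1.81 in DMSO day 14 and by 1.44 to 2.19 in GSK day 14.

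**Figure D4:**
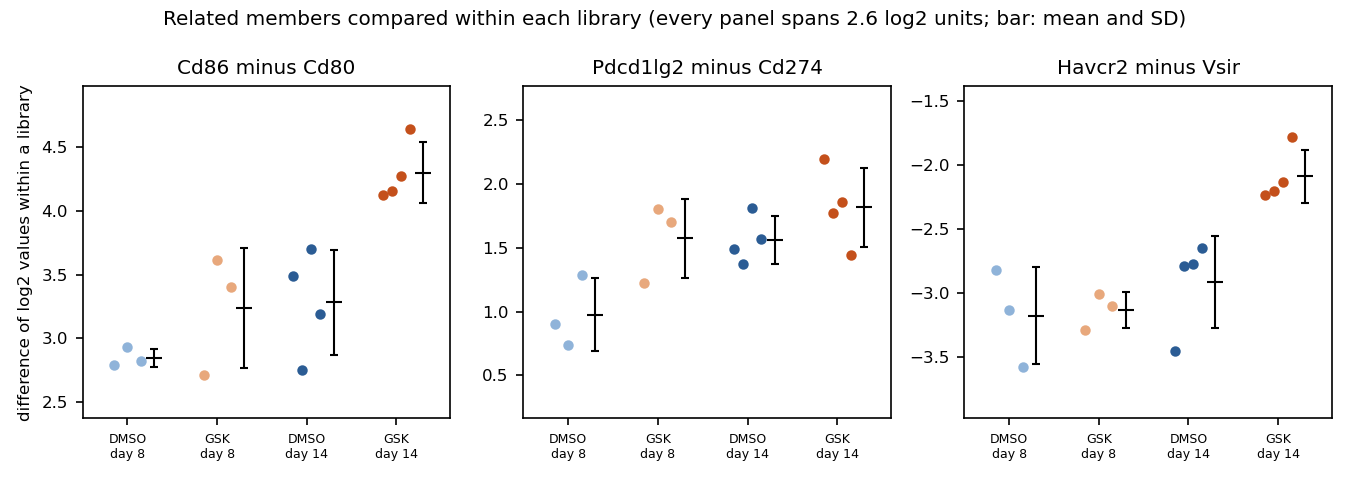
Difference of log2 values within each library (vertical axis) for Cd86 minus Cd80, Pdcd1lg2 minus Cd274 and Havcr2 minus Vsir in 4 groups (horizontal axis), with bars for the mean and SD (n = 3 on day 8, n = 4 on day 14). For Cd86 minus Cd80 the GSK day 14 points, 4.12 to 4.64, lie above all others, and for Pdcd1lg2 minus Cd274 the day 14 groups overlap.

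Per kilobase of exon, the mean log2 level over 14 libraries was highest for Pdcd1lg2 (8.93 ± 0.29, SD), followed by Vsir (8.52 ± 0.18) and Sirpa (7.72 ± 0.47). Next came Lilrb4a (6.89), Pirb (6.85), Havcr2 (6.62), Cd274 (6.54), Cd86 (6.38) and Cd40 (6.19). From Pdcd1lg2 down to Cd40, the range of each gene over the libraries overlapped that of the next. Cd80, at 2.89 ± 0.21, was below Cd40 in all 14 libraries with no overlap. Pdcd1lg2 was at percentile 93.2 and Cd80 at percentile 22.2 of all kept genes on this scale. The level of the PD-L2 gene was above that of the PD-L1 gene in every library, as the within-library differences show.

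The genes around these 10 were taken from lists of related receptors, adaptors, partners and inducers. Of 20 measured genes on a list of myeloid receptors, most of them inhibitory, 2 rose and 5 fell on day 14. Beside them, 5.1 percent of all kept genes rose and 5.73 percent fell. The median log2 change of the list was 0.02, equal to that of all kept genes. Clec12a, a C-type lectin receptor for uric acid crystals, was lower in the GSK group by 1.03 (SE 0.21, limma adjusted p = 0.0103). Its day 14 mean was 8.92 ± 0.48 in DMSO and 7.88 ± 0.28 in GSK (SD, n = 4 each). Over time it rose by 1.54 in the DMSO group (SE 0.23, limma adjusted p = 0.00558), a call that ended in 2 of 27 alternative settings. In the GSK group its change over time was 0.26 (SE 0.23, limma adjusted p = 0.516). On day 14 Siglece, a sialic acid receptor, fell by 1.00 (SE 0.22, limma adjusted p = 0.0132), and Cd300a, a receptor for phospholipids, fell by 0.68 (SE 0.16, limma adjusted p = 0.0163). Cd33, another sialic acid receptor, rose by 0.57 (SE 0.15, limma adjusted p = 0.0249). The other 3 that passed, named after their values were seen, were Fcgr2b (1.15), the inhibitory Fc receptor, Cd72 (-0.56) and Cd300lf (-0.44). Genes of this list moved in both directions on day 14, and the day 14 call of Clec12a held in all 27 alternative settings. Of the same 27, the call of Siglece ended in 4, Cd300a in 3 and Cd33 in 7. The call of Fcgr2b ended in 10, Cd72 in 13 and Cd300lf in 16.

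Of 12 phosphatases, kinases and adaptors that work with such receptors, 4 rose on day 14 and 0 fell, with a median of 0.12. Among all kept genes 5.1 percent rose and 5.73 percent fell on that day. Dok1, an adaptor that restrains Ras signalling, was higher in the GSK group by 0.94 (SE 0.16, limma adjusted p = 0.00548). Its day 14 mean was 5.91 ± 0.26 in DMSO and 6.85 ± 0.18 in GSK (SD, n = 4 each), and it passed in all 27 alternative settings. Tyrobp (DAP12), which carries an activating motif, rose by 0.96 (SE 0.23, limma adjusted p = 0.0193). Ptpn11, the phosphatase SHP-2, rose by 0.62 (SE 0.13, limma adjusted p = 0.0118), and the adaptor Skap2 rose by 0.39 (SE 0.12, limma adjusted p = 0.0415). Of the 27 settings, the call of Tyrobp ended in 6, Ptpn11 in 1 and Skap2 in 13. Ptpn6 (SHP-1) stood at -0.27 (SE 0.13, limma adjusted p = 0.172). Signalling by these proteins was not measured.

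**Figure D5:**
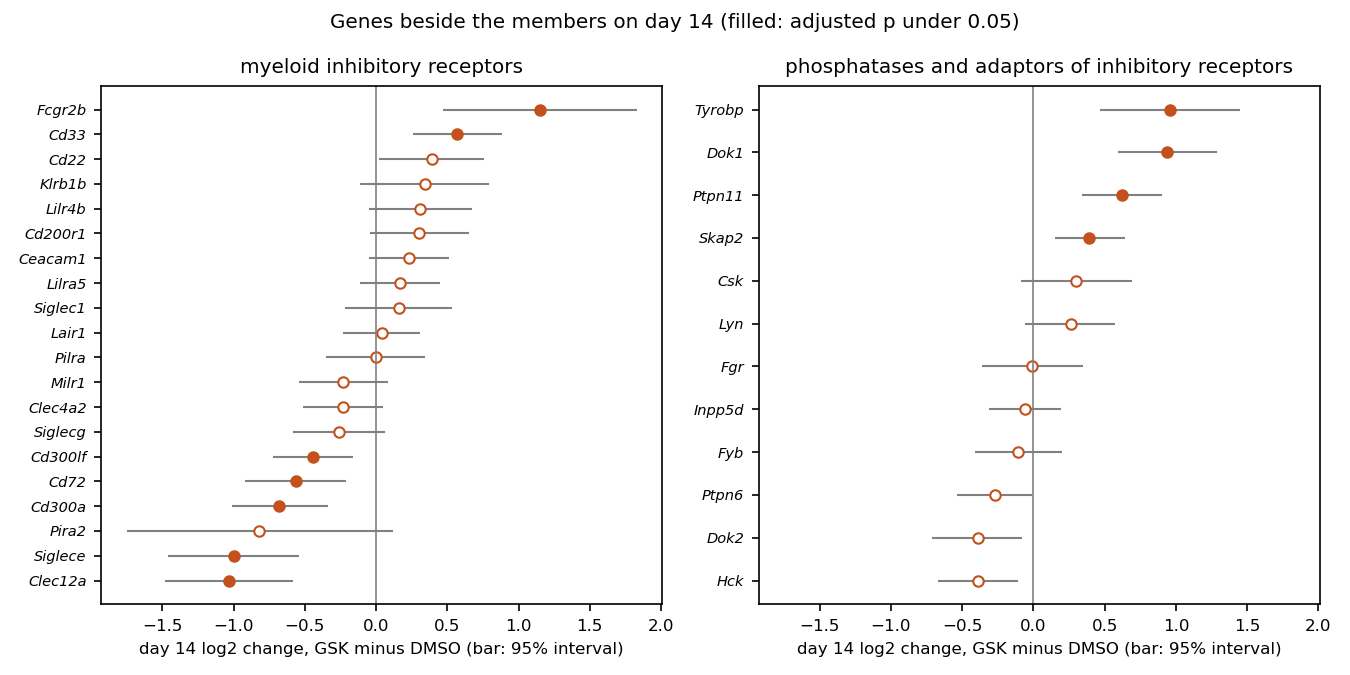
Day 14 log2 change, GSK minus DMSO (horizontal axis), of 20 myeloid receptors, most of them inhibitory, and 12 phosphatases and adaptors (vertical axis, ordered by change), with 95% intervals from limma and filled points for an adjusted p under 0.05. In the left panel 2 filled points lie to the right and 5 to the left of no change, and in the right panel all 4 filled points lie to the right.

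Of 12 genes listed for interferon signalling and the control of Cd274 or its protein, 1 rose and 1 fell on day 14, with a median of 0.23. The shares of all kept genes were 5.1 percent that rose and 5.73 percent that fell. Jak2, the kinase of the interferon gamma receptor, rose by 0.65 (SE 0.19, limma adjusted p = 0.0396), a call that ended in 12 of 27 alternative settings, and Irf9, an interferon regulatory factor, fell by 0.65 (SE 0.14, limma adjusted p = 0.0111). For the mean of both days Socs3, a feedback inhibitor, rose by 0.97 (limma adjusted p = 0.0444), a call that ended in 14 of 26 alternative settings. Cd274 passed in neither comparison. Of 12 adaptors of Cd40 and members of the NF-kB pathway, 0 passed on day 14, and Rela fell by 0.70 over time in the GSK group (limma adjusted p = 0.0407), a call that ended in 12 of 27 alternative settings, with differences of -0.80 to -0.41 over all 27.

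Of 20 listed further co-stimulators of the B7 and TNF families, 14 were in the table. Of these 9 were kept, and 0 passed the threshold on day 14. Lgals9, which encodes the TIM-3 ligand galectin-9, rose for the mean of both days by 0.50 (SE 0.16, limma adjusted p = 0.0463), a call that ended in 17 of 26 alternative settings, with changes down to 0.13. Of 17 listed partners on other cells, 16 were in the table and 5 were kept. Pdcd1, Ctla4, Cd28 and Cd40lg, the T cell partners of the ligands and of Cd40, were not kept, and their highest log2 values in any library were -1.43, -0.61, 1.58 and -0.46. Hmgb1, a ligand of TIM-3, fell for the mean of both days by 0.66 (SE 0.14, limma adjusted p = 0.00724).

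Beside the 5.1 percent of all kept genes that rose on day 14 and the 5.73 percent that fell, macrophage markers also moved. Of these markers 3 of 10 rose (Adgre1 by 0.70, Cd68 by 1.04 and Lyz2 by 0.81) and 2 fell (C1qa by 0.85 and Itgam by 0.59). Their mean was 11.81 to 12.31 in DMSO day 14 and 12.18 to 12.38 in GSK day 14. Dendritic cells also express Cd80, Cd86 and Cd40. Of the dendritic cell markers 6 of 10 were kept and 0 passed on day 14, with a mean of 5.49 ± 0.14 (SD, n = 4) in DMSO and 5.29 ± 0.05 (n = 4) in GSK. The part of these cell types in the changes of Lilrb4a, Cd86 and Havcr2 was not tested.

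Within the 6 day 14 libraries of the AY036118 kind and the 3 such day 8 libraries, the day 14 changes were 1.74 for Lilrb4a (limma adjusted p = 0.0133), 0.69 for Cd86 (limma adjusted p = 0.0373) and 0.64 for Havcr2 (limma adjusted p = 0.0355). No GSK day 14 library was of the other kind, so no value could be had there. With the kind as a term in the fit of all libraries, Lilrb4a passed (1.71, limma adjusted p = 0.021), and Cd86 (0.61, limma adjusted p = 0.118) and Havcr2 (0.56, limma adjusted p = 0.0943) did not. On day 8 only 1 DMSO library was of the AY036118 kind, DMSO day 8 library 2, so day 8 values within that kind rest on it.

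The genes most like each riser were found by Pearson correlation over 14 libraries after the 4 group means were removed, as a description of these libraries. For Havcr2 they were Washc2 (r = 0.957), Snapc3 (0.914) and Gpr160 (0.900). For Cd86 they were Utp11 (0.961), Zfp445 (0.952) and Ganab (0.951). For Lilrb4a they were C1rb (0.946), Cox7c (0.930) and Eif4a1 (0.921), whose 31-base words also occur elsewhere at shares of 71.36%, 24.55% and 31.12%, most in C1ra, Gm10012 and Eif4a-ps4. Of the genes most like Havcr2 and Cd86 none shares more than 6.21%. These shares were not measured for all kept genes, and the highest r among many genes can be high by chance. C1rb, Cox7c and Eif4a1 also rose on day 14, by 1.81, 1.15 and 0.72 (limma adjusted p = 0.0164, 0.0271 and 0.0343), as did Ganab by 1.22 (limma adjusted p = 0.0076), and the other 5 did not pass.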

How the data were processed

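The authors deposited 1 table of log2 values for 24556 mouse Ensembl genes in 14 libraries, and all its columns were used. Per the submitters' processing notes, RSEM 1.2.29, Bowtie2 and DESeq2 1.12.4 were used with the builds mm10 and GRCh38. The transformation behind the values and the use of strand are not given in the sources used here, so changes of low genes may be understated. No counts were used, and the depth is unknown.

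Symbols and coordinates came from GENCODE M21 (GRCm38), in which 24483 identifiers matched and 73 did not. Genes with an unlogged value of at least 10 in at least 3 libraries were kept. limma 3.58.1 (R 4.3.3) fitted 4 group means to all 14 libraries with an empirical Bayes trend, and two-sided p-values had Benjamini-Hochberg adjustment across the 11886 kept genes, separately for each comparison. Simulated data were used to test the model. Levels per kilobase were divided by merged exon length. Words of 31 bases were compared across GENCODE transcripts, and motifs were searched in RefSeq stretches before start sites.

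The 10 genes and the lists were chosen with earlier results of these data known. Named genes were the 10, up to 4 past the threshold from each list and comparison, fixed binding partners, and the 3 genes most like each gene past the threshold on day 14, and the text gives a part of them. Alternatives were other pseudocounts, filters, scalings, weights and fits, the replicate number as a block, the ribosomal RNA kind, the 4T1 epithelium mean and each library left out. Summing near-identical copies was added after the data were seen.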

Additional observations from a re-analysis of the deposited data

Results flagged for a closer look

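Among 22 sets of 4 day 14 values (the 10 genes and the sum over the Lilrb4a locus, in 2 groups), 2 held a library far from the other 3. Chance marks about 1 set in 20. Vsir stood at 11.36 in DMSO day 14 library 1, and the other DMSO day 14 libraries were at 10.84 to 10.93, a gap of 0.835 of the range. That library also had the lowest Lilrb4a value of its group, 7.83. The summed log2 value of Lilrb4a, Lilr4b and Gm49339 was 12.32 in GSK day 14 library 4, and the other 3 GSK day 14 libraries were at 11.97 to 11.99, a gap of 0.943 of the range. What set these libraries apart was not tested.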

How the results depend on the processing

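Of the 10 genes, 3 passed on day 14, a count that went to 0 with no filter on low values, to 1 with the ribosomal RNA kind as a term (Lilrb4a) and to 1 with the mean of the 4T1 epithelium markers added (Lilrb4a), and lay between 0 and 3 with 1 library left out. On day 8 the count of 0 became 1 (Pdcd1lg2) with library quality weights. It was also 1 in the AY036118 libraries alone, where the DMSO day 8 group is 1 library, assumed to vary like the other groups, with the lowest Pdcd1lg2 value of all 14 (9.07). It stayed 0 with any library left out. For the mean of both days the count of 2 became 0 with no filter, 1 with TMM factors, 1 with the ribosomal RNA term, 4 in the AY036118 libraries and 1 with near-identical copies summed, rose to 3 with quality weights and with the epithelium covariate, and lay between 0 and 3 with 1 library left out. Over time in the GSK group the count of 2 became 1 with no filter, 4 with quality weights, 1 in the AY036118 libraries and 0 with the epithelium covariate, and lay between 1 and 2 with 1 library left out. The difference between days and the change over time in DMSO gave 0 in every alternative run. With no filter more genes share the adjustment, and the cause of the other changes was not tested.

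Of the 20 myeloid receptors, the 2 that rose on day 14 became 1 with no filter, 0 with the ribosomal RNA term, 1 in the AY036118 libraries and 0 with the epithelium covariate, and were 0 to 2 with 1 library left out. The 5 that fell became 3 with no filter, 3 with quantile normalisation, 1 with the ribosomal RNA term, 3 in the AY036118 libraries and 3 with the epithelium covariate, and were 1 to 5 with 1 library left out. The 4 phosphatases and adaptors that rose became 2 with no filter, 2 with the ribosomal RNA term, 2 in the AY036118 libraries and 2 with the epithelium covariate, and were 1 to 4 with 1 library left out. None fell, and 1 did with quality weights, with 0 to 1 when 1 library was left out.

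The sign turned in 40 of 1956 alternative values of single genes, none of which had passed the threshold. On day 8 Cd274 went to -0.0043 with TMM factors, -0.08 with weights and -0.01 with the epithelium covariate, Havcr2 to 0.07 with weights and 0.09 with the covariate, and Lilrb4a to -0.01 with copies summed. Pirb went to -0.05 with the ribosomal RNA term, -0.28 in the AY036118 libraries and -0.07 with copies summed, Sirpa to 0.06 with weights and 0.48 in the AY036118 libraries, and Cd40 to 0.01 in the AY036118 libraries and 0.06 with the covariate. On day 14 Cd40 went to -0.07 with the ribosomal RNA term, -0.05 in the AY036118 libraries and -0.12 with the covariate. The Lilrb4a difference between days went to -0.05 in the AY036118 libraries, and its change over time in DMSO to 0.29 with weights, 0.08 with the ribosomal RNA term, 0.70 in the AY036118 libraries, 0.01 with the covariate and 0.19 with copies summed. With the covariate, Cd86 over time in DMSO went to -0.10 and Sirpa over time in GSK to -0.05. With 1 library left out, the day 8 changes were -0.11 to 0.18 for Cd274, -0.28 to 0.11 for Havcr2, -0.15 to 0.25 for Pirb and -0.06 to 0.50 for Cd86, the day 14 changes -0.20 to 0.0029 for Cd274 and -0.02 to 0.13 for Cd40, and the change of Lilrb4a over time in DMSO -0.55 to 0.34.

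Whether the replicate numbers pair the libraries is not given in the sources used here. Same-numbered libraries of a day correlated in their deviations from the group means at -0.16 to 0.17. Some libraries correlated best with their own number and others did not. With so few libraries per group these values cannot decide whether the numbers mark pairs. With the replicate block the count over time in the GSK group was 1 in place of 2, without Cd86 (0.92, limma adjusted p = 0.0643), and in the other comparisons the count of the 10 genes was the same. A minimum of 50 left out Cd80, so no value was had for it there.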
